A study of Mus musculus with 12 samples.

Results

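S100g, A4gnt and Sprr1a are 3 genes that the mouse liver libraries held at or near 0 counts on the control diet and at low but regular counts on a high-fat, high-sugar diet. They were chosen by symbol from the 55401 genes of the table for that pattern, so their diet values are given as a description with no test, and only the comparison of genotypes within the diet was tested. RNA of whole liver from male C57BL/6 mice was sequenced in 4 groups of 3 libraries. FLOX-NC and FLOX-HFHS livers carried LPCAT3flox/flox without Cre, on the control diet (NC) and on the high-fat, high-sugar diet (HFHS) respectively. LKO-NC and LKO-HFHS livers carried LPCAT3flox/flox-cre on the same diets, and the labels used here do not name the promoter that drives Cre. Lpcat3, the targeted gene, encodes a lysophosphatidylcholine acyltransferase that builds unsaturated fatty acids into membrane phospholipids. The HFHS diet was fed for 16 weeks, its sugar is called sucrose in one label and fructose in another, and the age given for every group is 8 to 10 weeks. Nothing in the labels says that the libraries of a group came from separate mice, and p-values therefore speak only for the spread among libraries, which may be technical.

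S100g encodes calbindin-D9k, a small cytosolic protein of the S100 family that binds calcium through EF-hand loops and carries it across the absorptive cells of the intestine, where vitamin D induces it. A4gnt encodes a Golgi N-acetylglucosaminyltransferase that caps O-linked sugar chains of the mucin Muc6 in the gland mucous cells of the stomach and duodenum. Sprr1a encodes a small proline-rich protein that transglutaminases cross-link into the cornified envelope of skin and other squamous epithelia, and the gene is also known to be induced in injured neurons and in stressed heart muscle. All 3 are best known from tissues other than liver.

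S100g (ENSMUSG00000040808) lies on mm10 chromosome X from 162961992 to 162964599 on the minus strand, with 3 exons and 480 transcript bases. A4gnt (ENSMUSG00000037953) lies on chromosome 9 from 99612502 to 99622367 on the plus strand, with 3 exons and 2757 bases. Sprr1a (ENSMUSG00000050359) lies on chromosome 3 from 92483952 to 92485895 on the minus strand, with 2 exons and 806 bases. Each had 1 transcript in the transcript table (ENSMUST00000038769, ENSMUST00000042553 and ENSMUST00000054599), whose count equalled the gene's count in all 12 libraries. None of the 431, 2708 and 757 words of 50 bases in these transcripts occurred in a transcript of another gene. The search covered exact words in annotated transcripts only. Reads placed with mismatches, and copies outside those transcripts, were not tested.

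The promoters of the 3 genes are shown because the genes came up together and their annotated starts differ in sequence. Each run covers 250 bases before and 50 bases from the annotated start, read 5' to 3' on the gene's strand from RefSeq on GRCm38.p6, the build also called mm10. The windows are chrX:162964550-162964849 (minus strand), chr9:99612252-99612551 (plus strand) and chr3:92485832-92486131 (minus strand). Capitals mark matches on either strand to any of 6 words. The words searched were AGGTCA, found in many nuclear receptor elements, TGANTCA, bound by Jun and Fos dimers, and TTCNNNGAA, bound by STAT proteins. The others were TTGCNNAA, bound by CEBP proteins, CACGTG, bound by helix-loop-helix proteins, and TATAAA, which places the start of transcription.
S100g: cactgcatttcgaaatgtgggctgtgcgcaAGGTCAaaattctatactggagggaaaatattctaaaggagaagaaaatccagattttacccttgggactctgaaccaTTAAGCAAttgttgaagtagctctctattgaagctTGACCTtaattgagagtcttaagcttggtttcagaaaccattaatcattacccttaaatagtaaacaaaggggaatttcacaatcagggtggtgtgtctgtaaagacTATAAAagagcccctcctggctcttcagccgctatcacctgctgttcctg
A4gnt: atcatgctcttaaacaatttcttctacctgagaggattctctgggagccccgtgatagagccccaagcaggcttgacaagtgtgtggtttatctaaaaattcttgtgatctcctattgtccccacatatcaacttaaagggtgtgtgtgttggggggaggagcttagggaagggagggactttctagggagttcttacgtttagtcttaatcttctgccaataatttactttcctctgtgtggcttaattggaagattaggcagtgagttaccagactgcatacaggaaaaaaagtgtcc
Sprr1a: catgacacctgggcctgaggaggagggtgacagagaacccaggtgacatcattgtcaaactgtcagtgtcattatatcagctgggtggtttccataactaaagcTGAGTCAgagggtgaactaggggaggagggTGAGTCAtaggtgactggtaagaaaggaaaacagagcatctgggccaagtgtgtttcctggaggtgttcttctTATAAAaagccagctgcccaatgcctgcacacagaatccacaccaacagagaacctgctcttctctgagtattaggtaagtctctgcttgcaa
The S100g promoter held AGGTCA on the gene's strand 220 bases before the start and, as its reverse complement, 107 bases before it. It also held a TTGCNNAA match on the other strand 142 bases before the start, and a TATAAA whose first base is the annotated start itself. The Sprr1a promoter matched TGANTCA at 146 and again at 116 bases before the RefSeq start, and a TATAAA at 43 bases before it. For Sprr1a alone that start lies inside the gene bounds given above, downstream of the 5' bound at 92485895. Distances counted from that bound would be shorter. The A4gnt promoter held none of the 6 words, so no word was shared by all 3, and only TATAAA was shared by 2 of them. No match overlapped another. In the 32851 promoters of the same length, AGGTCA occurred in 16.3%, TATAAA in 13.6%, TTGCNNAA in 10.8%, TTCNNNGAA in 8.30%, TGANTCA in 7.81% and CACGTG in 7.15%. All 3 promoters were poorer in G and C than the median promoter (52.7%), with 41.0% for S100g, 43.7% for A4gnt and 48.7% for Sprr1a. They held 3, 2 and 0 CG dinucleotides against a median of 7, and 31.4%, 23.3% and 5.43% of all promoters held as few. A word match describes the letters only.

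Library totals ran from 34951150 to 59205759 counts. CPM below is the count divided by the scaled library total and given per 1e6 counts, after TMM scaling, a correction for libraries in which a few genes take much of the total. The scaling factors ran from 0.644 in FLOX-HFHS replicate 1 to 1.46 in LKO-HFHS replicate 3, and 1 ribosomal RNA gene took 5.81% to 32.7% of a library. Lpcat3 stood at 72.6 to 80.6 CPM in the FLOX-HFHS libraries and at 25.0 to 29.4 CPM in the LKO-HFHS libraries. On the control diet it stood at 49.7 to 61.9 CPM in FLOX-NC, and at 25.4, 65.0 and 19.4 CPM in replicates 1 to 3 labelled LKO-NC. The library labelled LKO-NC replicate 2 thus goes against its label.

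All 3 genes were read on the HFHS diet in both genotypes and were at or close to 0 on the control diet. S100g had 0 counts in 5 of the 6 control-diet libraries and 10 counts (0.180 CPM) in LKO-NC replicate 3. On the HFHS diet it had 57, 107 and 54 counts in FLOX-HFHS replicates 1 to 3, which are 2.53, 1.80 and 1.11 CPM. In LKO-HFHS it had 29, 53 and 37 counts, which are 0.687, 0.795 and 0.528 CPM. Every HFHS library was above every control-diet library, and the highest value came from FLOX-HFHS replicate 1, the library with the lowest scaling factor. The mean was 1.81 ± 0.710 CPM in FLOX-HFHS and 0.670 ± 0.134 CPM in LKO-HFHS (SD, n = 3 each).

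A4gnt had 0 counts in all 6 control-diet libraries. It had 60, 214 and 142 counts in FLOX-HFHS replicates 1 to 3, which are 2.67, 3.60 and 2.92 CPM. In LKO-HFHS it had 20, 93 and 84 counts, which are 0.474, 1.40 and 1.20 CPM. The 3 FLOX-HFHS libraries were close to each other, and LKO-HFHS replicate 1 was the lowest of the 6 HFHS libraries. The mean was 3.06 ± 0.483 CPM in FLOX-HFHS and 1.02 ± 0.485 CPM in LKO-HFHS (SD, n = 3 each).

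Sprr1a also had 0 counts in all 6 control-diet libraries. It had 28, 95 and 81 counts in FLOX-HFHS replicates 1 to 3, which are 1.24, 1.60 and 1.67 CPM. In LKO-HFHS it had 77, 139 and 272 counts, which are 1.82, 2.09 and 3.88 CPM. LKO-HFHS replicate 3 was the highest, and the other LKO-HFHS libraries lay just above the floxed ones. The mean was 1.50 ± 0.227 CPM in FLOX-HFHS and 2.60 ± 1.12 CPM in LKO-HFHS (SD, n = 3 each).

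**Figure D1:**
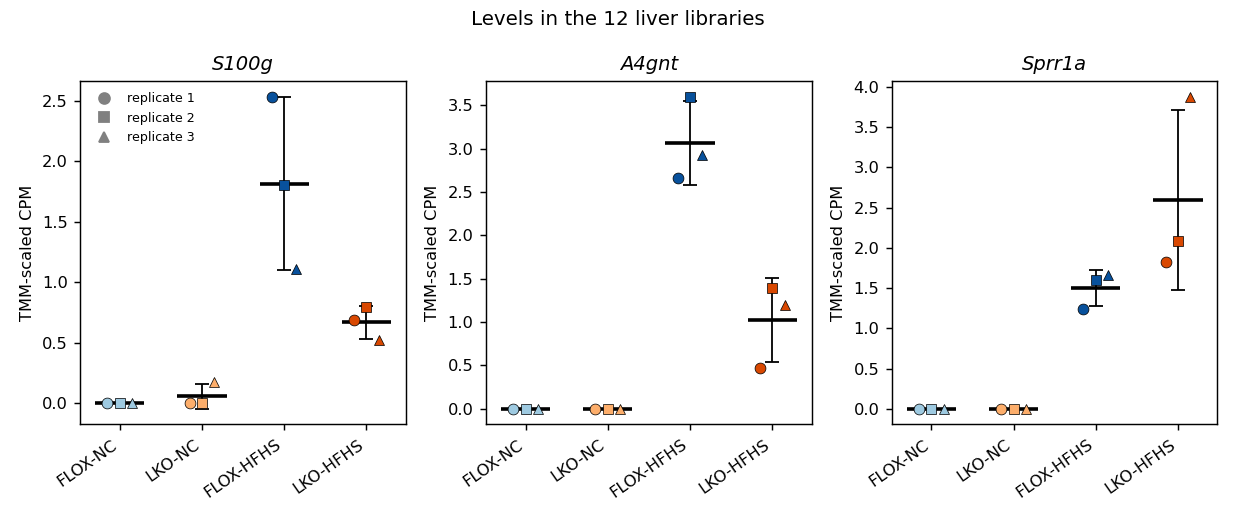
TMM-scaled CPM of S100g, A4gnt and Sprr1a in the 12 liver libraries, 1 panel per gene with its own axis and 3 replicates per group as points, the bar being the group mean and the whiskers ± SD. Control-diet libraries sit at 0 except LKO-NC replicate 3 for S100g (0.180 CPM), and on the HFHS diet the LKO points lie below the FLOX points for S100g and A4gnt and above them for Sprr1a.

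A count of 0 in all libraries of a group allows a level of up to 0.0228 CPM, set at 3 counts over the group and covering counting error only. Against that limit, the HFHS mean was at least 79.6-fold higher for S100g, at least 134-fold higher for A4gnt and at least 65.9-fold higher for Sprr1a in floxed livers. In knockout livers it was at least 44.8-fold higher for A4gnt and at least 114-fold higher for Sprr1a. For S100g in knockout livers the ratio of the means was 11.1, and the 10 control-diet counts behind it came from 1 library. The members were chosen on these differences, so nothing is read from them. For the background, edgeR's quasi-likelihood test with Benjamini-Hochberg adjustment called 2.9% of the 15982 tested genes changed by diet in floxed livers (1.6% higher, 1.31% lower) and 3.75% in knockout livers (2.25% higher, 1.5% lower). The diet groups did not overlap in CPM for 19.6% of tested genes in floxed livers (10.6% higher, 8.99% lower) and for 29.9% in knockout livers (16.9% higher, 13% lower). The 3 genes passed the filter on low counts only through the HFHS groups. In whole liver, more cells of a type and more RNA per cell cannot be told apart.

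At most 6 counts summed over the 6 control-diet libraries and at least 10 in each HFHS library was a pattern met by 6 of the 55401 genes. These were Cyp2b13, a female-biased cytochrome P450 of mouse liver, at a mean of 5.97 CPM over the HFHS libraries, Pnpla5, a lipase of the patatin-like family, at 2.86 CPM, Sprr1a at 2.05 CPM, A4gnt at 2.04 CPM, the pseudogene Mup-ps10 at 0.601 CPM and Spink1, a secreted trypsin inhibitor, at 0.541 CPM. S100g lay just outside, through its 10 control-diet counts. With a limit of 10 control-diet counts, chosen after the values were seen, 14 genes met the pattern and S100g was among them. The mirror pattern, at most 6 counts over the HFHS libraries and at least 10 in each control-diet library, was met by 3 genes.

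Within the HFHS diet, S100g and A4gnt were lower and Sprr1a was higher in every Lpcat3 knockout library than in every floxed library in TMM-scaled CPM, yet no difference passed the test across all genes. The question is whether loss of Lpcat3 moved the 3 genes on the HFHS diet, and the choice of members did not use it. The level of A4gnt in LKO-HFHS was 0.334 times that in FLOX-HFHS by mean CPM, with a fitted log2 difference of -1.58 ± 0.58 (SE) and a 95% interval of -2.89 to -0.26. Its unadjusted p in edgeR's quasi-likelihood test was 0.0240, rank 288 of the 15982 tested genes, and the adjusted p was 1. S100g stood at 0.369 times the floxed level, with a log2 difference of -1.43 ± 1.01 (SE), an interval of -3.65 to 0.79 and an adjusted p of 1 by edgeR. Sprr1a stood at 1.73 times the floxed level, with a log2 difference of 0.79 ± 0.53 (SE), an interval of -0.42 to 1.99 and an adjusted p of 1 by edgeR. In this fit over 12 libraries the intervals of S100g and Sprr1a include no difference, and that of A4gnt does not before adjustment. The spread depends on the fit. In the 6 HFHS libraries alone the log2 differences were -1.43 ± 0.45 for S100g, -1.58 ± 0.44 for A4gnt and 0.78 ± 0.38 for Sprr1a (SE), and none passed after adjustment.

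For each gene the exact permutation test over the 6 HFHS libraries gave a two-sided p of 0.1, the smallest that 3 against 3 libraries allow. Groups that do not overlap were found for 11.4% of all tested genes in this comparison, 5.9% with LKO-HFHS higher and 5.47% with it lower. All 3 members were in that share, 1 higher and 2 lower. No tested gene was called by edgeR here (0% of 15982), while 520 had an unadjusted p under 0.05 and DESeq2 called 43, none of them a member. Without a scaling factor the median log2 difference of all tested genes moved from 0.01 to 0.45. Relative to that median, S100g, A4gnt and Sprr1a kept their directions. The separation of A4gnt rests on the scaling: without it, A4gnt stood at 1.72, 3.61 and 3.05 CPM in FLOX-HFHS and 0.473, 1.68 and 1.75 CPM in LKO-HFHS. The groups then overlapped, at FLOX-HFHS replicate 1 and LKO-HFHS replicate 3, and the exact two-sided permutation p was 0.2. S100g and Sprr1a did not overlap without scaling either (exact permutation p 0.1 each).

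**Figure D2:**
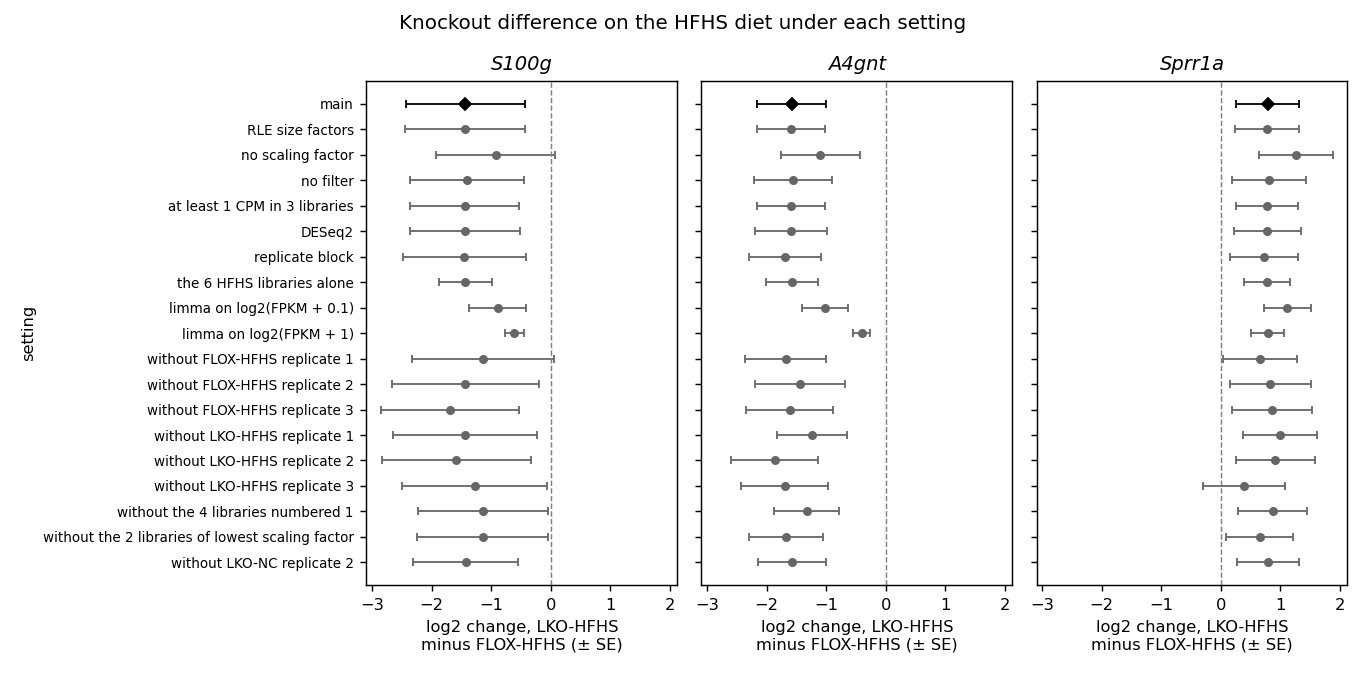
Fitted log2 difference of LKO-HFHS minus FLOX-HFHS (x axis) for S100g, A4gnt and Sprr1a under each processing setting (y axis), points with whiskers of ± SE and the first line being the value reported. S100g stays below 0 at -1.69 to -0.61, A4gnt at -1.87 to -0.41 and Sprr1a above 0 at 0.39 to 1.27, and no setting brought an adjusted p under 0.05.

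Ratios of 2 genes within a library need no scaling factor, and they were added after the values were seen. In scaled CPM Sprr1a was already known to separate the genotypes upward and the other 2 genes downward, so ratios with Sprr1a largely restate that. The share of other gene pairs whose ratios do not overlap was not computed. In the 3 FLOX-HFHS libraries Sprr1a had 0.467, 0.444 and 0.570 counts for each A4gnt count. In the LKO-HFHS libraries it had 3.85, 1.49 and 3.24. The ratios did not overlap, and their mean log2 differed by 2.43 between genotypes (exact two-sided permutation p 0.1, the smallest possible, adjusted p 0.15 over 3 pairs of genes). The counts of Sprr1a for each S100g count were 0.491, 0.888 and 1.50 in FLOX-HFHS and 2.66, 2.62 and 7.35 in LKO-HFHS, again without overlap, with a mean log2 difference of 2.10 (exact permutation p 0.1, adjusted p 0.15). S100g and A4gnt kept overlapping ratios, at 0.95, 0.5 and 0.380 in FLOX-HFHS and 1.45, 0.570 and 0.440 in LKO-HFHS, with a log2 difference of 0.34 (exact permutation p 0.6, adjusted p 0.6).

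Per length, in the authors' FPKM, the order of the 3 genes was the same within each genotype and differed between genotypes. This order follows from the same within-library ratios and is not a separate result. S100g read 2.83, 3.15 and 1.93 FPKM in FLOX-HFHS replicates 1 to 3 and 1.14, 1.69 and 1.28 FPKM in LKO-HFHS. A4gnt read 0.520, 1.10 and 0.896 FPKM in FLOX-HFHS and 0.136, 0.517 and 0.515 FPKM in LKO-HFHS. Sprr1a read 0.823, 1.66 and 1.74 FPKM in FLOX-HFHS and 1.82, 2.63 and 5.74 FPKM in LKO-HFHS. In all 3 floxed libraries S100g was highest, Sprr1a next and A4gnt lowest, although in replicate 3 S100g and Sprr1a were close (1.93 and 1.74 FPKM). In all 3 knockout libraries Sprr1a was highest, S100g next and A4gnt lowest. By group mean, S100g was above 63.9% of the tested genes in FLOX-HFHS and above 44.6% in LKO-HFHS. A4gnt was above 42.1% and 24.5%, and Sprr1a above 51.5% and 62.6%.

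**Figure D3:**
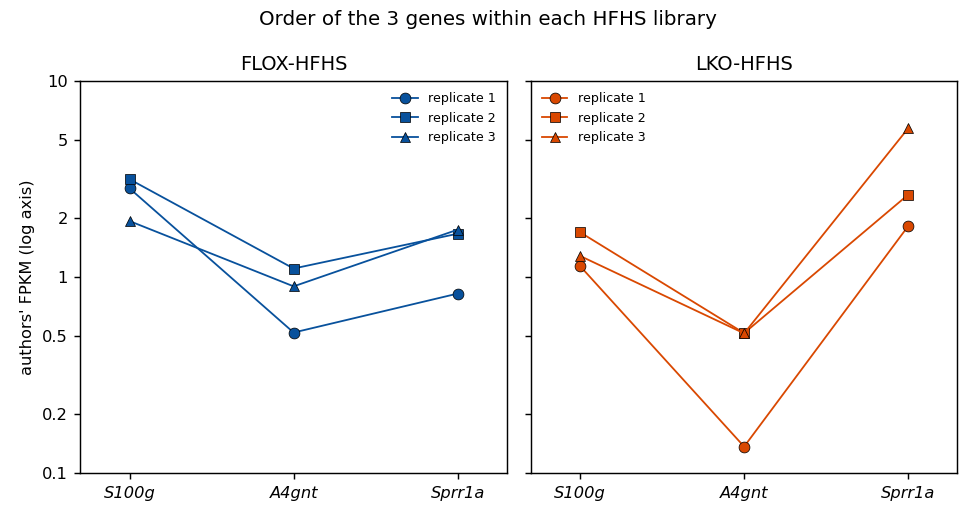
Authors' FPKM (log axis) of S100g, A4gnt and Sprr1a in the 3 FLOX-HFHS and the 3 LKO-HFHS libraries, each line joining the 3 genes of 1 library. A4gnt is the lowest point of every line, at 0.136 to 1.10 FPKM, and the highest point is S100g in the floxed panel and Sprr1a in the knockout panel.

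S100g is a member of the S100 family and works between calcium entry channels and export pumps. Of 9 other S100 genes tested, S100a11 and S100a10, partners of annexins at membranes, rose on the HFHS diet in floxed livers and none fell, which is 22.2% called beside 2.9% of all tested genes. S100a11 rose by 2.42 ± 0.38 on the log2 scale (SE, adjusted p 0.00611 by edgeR) and S100a10 by 1.38 ± 0.34 (adjusted p 0.0488 by edgeR). The call of S100a10 was lost without FLOX-NC replicate 2, FLOX-HFHS replicate 2 or FLOX-HFHS replicate 3, without a scaling factor (adjusted p 0.203 by edgeR) and in the 6 floxed libraries alone. In knockout livers 1 of the 9 (11.1%) was called beside 3.75% of all tested genes, S100a11, higher by 2.97 ± 0.39 (adjusted p 0.00179 by edgeR). The S100 median log2 change was 0.48 in floxed and -0.18 in knockout livers, beside -0.01 and 0.05 over all tested genes. Of 10 tested genes of calcium transport and the vitamin D response, 0 were called in either genotype by edgeR, with medians of 0.22 and 0.04. Blocking on replicate number called 2 of them higher in floxed livers, the calmodulin gene Calm3 and the sodium-calcium exchanger gene Slc8a1. In knockout livers the block called 1 of them, the endoplasmic reticulum pump Atp2a2, at a log2 change of -0.65 ± 0.18 (SE, adjusted p 0.0478 by edgeR). It also called S100a13 of the S100 list there, at -0.66 ± 0.17 (adjusted p 0.0336 by edgeR). The plasma membrane pump gene Atp2b2 is in neither list and is named below only because it was picked for its likeness to S100g. The entry channels Trpv5 and Trpv6, the calcium sensor Casr, the vitamin D-induced Cyp24a1 and the calcium-binding proteins Calb1, Calb2 and Pvalb had 0 counts in all 12 libraries. Without the block, the smallest p of the calcium list in floxed livers belonged to Calm3, at a log2 change of 0.86 ± 0.28 (SE, adjusted p 0.128 by edgeR), and to Slc8a1, at 1.83 ± 0.62 (adjusted p 0.144).

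S100g also lies within the bounds of Ctps2, a CTP synthase gene on the opposite strand (chromosome X, 162901238 to 163032508), and shares 0 exon bases with it. Ctps2 stood at 4.62 ± 0.268, 4.56 ± 1.60, 7.78 ± 2.16 and 9.81 ± 1.90 CPM in FLOX-NC, LKO-NC, FLOX-HFHS and LKO-HFHS (SD, n = 3 each). It was not called by diet (adjusted p 0.217 in floxed and 0.0694 in knockout livers, edgeR). The strand setting of the counting is not given in the sources used here, so intronic reads of Ctps2 over the S100g exons cannot be told apart from S100g reads by strand.

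Of 21 tested genes that build mucin-type sugar chains beside A4gnt, 0 were called in either genotype by edgeR, with or without the replicate block. Their median log2 change was 0.01 in floxed and -0.02 in knockout livers. The smallest p in floxed livers belonged to St3gal1, a sialyltransferase, at a log2 change of -0.50 ± 0.17 (SE, adjusted p 0.151 by edgeR), and to Galnt1, which starts O-linked chains, at 0.61 ± 0.24 (adjusted p 0.208). In knockout livers they belonged to Galnt6, another starter enzyme, at 1.89 ± 0.70 (adjusted p 0.165 by edgeR), and to Gcnt1, which makes the branch, at 2.63 ± 1.01 (adjusted p 0.182). Gcnt3 and St6galnac1, mucin branching and sialylation enzymes of the gut, had 0 counts throughout. Muc6, the mucin that A4gnt modifies in the stomach, had 0 counts in FLOX-NC and in FLOX-HFHS, 13 in LKO-NC and 22 in LKO-HFHS, summed over 3 libraries each.

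Of 27 genes of the cornified envelope list beside Sprr1a, 6 could be tested and 0 were called in either genotype by edgeR, with median log2 changes of 0.52 and 0.65. The replicate block called 2 in knockout livers, Dsp, the desmosome protein desmoplakin, at 0.96 ± 0.20 (SE, adjusted p 0.0114 by edgeR) and the widely expressed transglutaminase Tgm2 at 0.75 ± 0.17 (adjusted p 0.0195). In floxed livers the block called 1, Tgm2, as higher. Of the 27, 18 had 0 counts in all 12 libraries, Sprr1b, Sprr3 and Sprr4 among them. In floxed livers Tgm1, the transglutaminase of keratinocytes, had a log2 change of -1.73 ± 0.49 (SE, adjusted p 0.0848 by edgeR). In knockout livers and without the block, Dsp had one of 0.91 ± 0.26 (adjusted p 0.0752 by edgeR). Between genotypes on the HFHS diet, Tgm1 differed by a log2 of 1.77 ± 0.49 (SE, adjusted p 0.966 by edgeR). The other Sprr gene with any count was Sprr2b, with 4 counts in LKO-NC.

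Sprr1a is known as a target of gp130 cytokine signalling in heart muscle, and 19 genes of that and of injury responses were tested. The share called was 15.8% in each genotype, beside 2.9% of all tested genes in floxed and 3.75% in knockout livers. In floxed livers 2 rose and 1 fell. Lcn2, a siderophore-binding acute-phase protein, rose by 5.09 ± 0.46 on the log2 scale (SE, adjusted p 1.9e-04 by edgeR), Saa2, an acute-phase protein, rose by 3.56 ± 0.77 (adjusted p 0.0301), and Lifr, a receptor chain that pairs with gp130, fell by 2.09 ± 0.27 (adjusted p 0.00176). The call of Saa2 was lost without FLOX-NC replicate 1, FLOX-NC replicate 3, FLOX-HFHS replicate 2 or FLOX-HFHS replicate 3, without a scaling factor (adjusted p 0.0563 by edgeR), without a filter and in the 6 floxed libraries alone. In knockout livers Lcn2 rose by 3.84 ± 0.43 (adjusted p 0.00103 by edgeR), Timp1, a metalloproteinase inhibitor with 4 counts over LKO-NC, was called higher (adjusted p 0.0266), and Lifr fell by 1.38 ± 0.27 (adjusted p 0.0124). The Timp1 call was lost without LKO-NC replicate 1 or 2 or LKO-HFHS replicate 1 or 3, and the Lifr call without LKO-HFHS replicate 3 or without a scaling factor (adjusted p 0.0976 by edgeR). In knockout livers the replicate block added Osmr, the oncostatin M receptor, at 1.74 ± 0.39 (SE, adjusted p 0.0172 by edgeR). In floxed livers the block added Steap4 and Myc, both higher. The medians of the list were 0.56 and -0.10.

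Genes of lipid droplets and of PPAR gamma, listed because several are likewise low in lean liver, were called more widely. Of 16 tested, 8 rose and 0 fell in each genotype (50%), beside 1.6% and 2.25% of all tested genes called higher in floxed and knockout livers. Pnpla5 and Aqp7 are among the 8 in each genotype and passed the filter on low counts only through the HFHS groups. The list was also chosen with earlier results of these data known, so its share is a description and no test of the list. The median log2 changes of the list were 2.20 in floxed and 2.08 in knockout livers. The replicate block added Pparg itself, at 1.03 ± 0.26 (SE, adjusted p 0.0338 by edgeR), and the droplet protein Cidea, at 3.37 ± 0.87 (adjusted p 0.0487), in knockout livers. Cidec, a lipid droplet fusion protein, rose by 3.65 ± 0.48 on the log2 scale in floxed livers (SE, adjusted p 0.00176 by edgeR) and by 3.63 ± 0.47 in knockout livers (adjusted p 0.00155). Cd36, a fatty acid uptake protein, rose by 2.56 ± 0.31 (adjusted p 0.00123 by edgeR) and by 1.97 ± 0.30 (adjusted p 0.00387). Pnpla5 had 0 control-diet counts, as A4gnt and Sprr1a had, and its HFHS mean exceeded that limit at least 140-fold in floxed and at least 111-fold in knockout livers. Aqp7, a glycerol channel, had 0 counts there too and exceeded the limit at least 35.5-fold and at least 104-fold. The Aqp7 call in floxed livers was lost without FLOX-NC replicate 2, FLOX-HFHS replicate 2 or FLOX-HFHS replicate 3 and in the 6 floxed libraries alone. Among the other calls in floxed livers, that of Cidea was lost in 6 of 13 settings and that of Mogat1 in 4. In knockout livers the call of Mogat1 was lost in 6 of 13 settings and that of Fabp4 in 5, both also without LKO-NC replicate 2.

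Over the 81 tested genes of the 6 lists, 13 were called by diet in floxed livers and 12 in knockout livers, which is 16.0% and 14.8% beside the 2.9% and 3.75% of all tested genes. Pnpla5 and Aqp7 are in both counts, and the lists were chosen with earlier results of these data known. Blocking on replicate number, which treats same-numbered libraries as pairs though no label does, gave 19 in knockout livers, where the share of all tested genes was 6.995%. Leaving out the library labelled LKO-NC replicate 2, the count in knockout livers was 9. Without FLOX-HFHS replicate 2 or replicate 3, the count in floxed livers was 8. The share of all tested genes with a library left out is not given here. A drop in the lists therefore cannot be told from a drop in all calls. Between genotypes on the HFHS diet, edgeR called 0 of the 81, 6 had an unadjusted p under 0.05, and DESeq2 called 1, Cidec, at a log2 difference of 1.95 ± 0.44 (SE, adjusted p 0.00748). Over all 15982 tested genes, 520 had an unadjusted p under 0.05 by edgeR and DESeq2 called 0.269%.

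**Figure D4:**
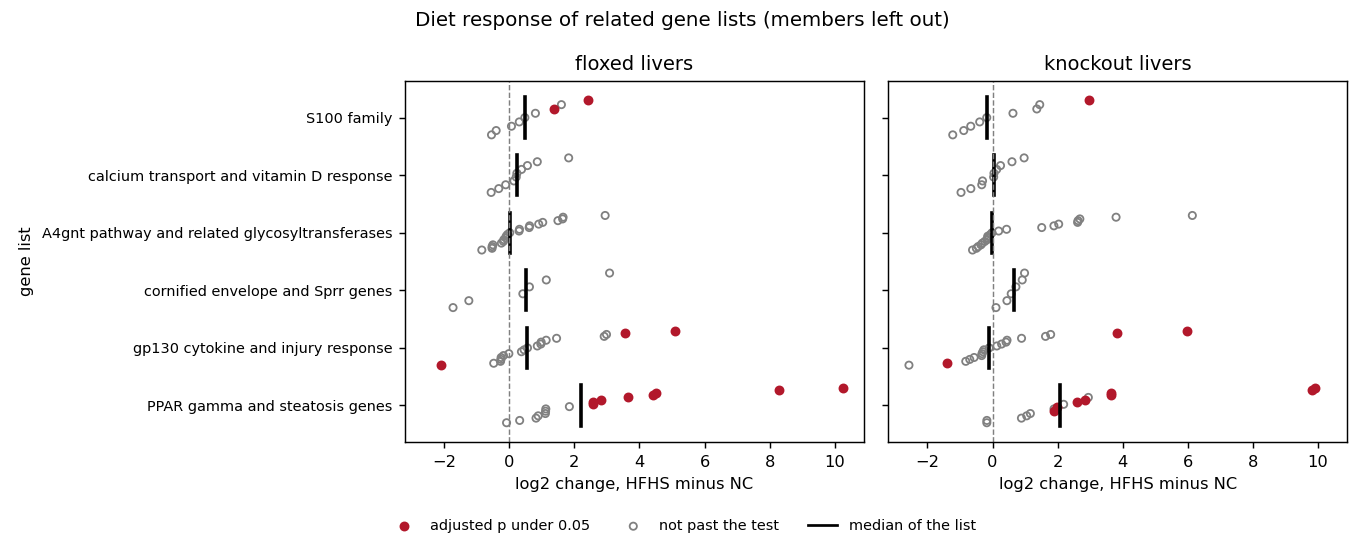
Log2 change of HFHS minus NC (x axis) for each tested gene of 6 lists (y axis), in floxed livers on the left and knockout livers on the right, filled points being past an adjusted p of 0.05 and vertical bars the list medians. S100g, A4gnt and Sprr1a are left out, the PPAR gamma and steatosis list has medians of 2.20 and 2.08, and the fitted values of Pnpla5, Aqp7 and, on the right, Fut2 depend on a prior count because a control-diet group is at 0.

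Of the protein-coding genes beside the 3 members, only Txlng, Syap1, Armc8, Dbr1 and Dzip1l had enough counts to be tested. None of these was called by edgeR, by diet or by genotype on the HFHS diet. Of the 2 nearest on each side of S100g, Syap1 (73.5 kb away) stood at 28.9, 38.9, 47.0 and 44.5 CPM and Txlng (133 kb) at 17.6, 16.4, 14.7 and 14.9 CPM in FLOX-NC, LKO-NC, FLOX-HFHS and LKO-HFHS, and Grpr and Rnf138rt1 had 0 counts. Near A4gnt, Dzip1l (7.13 kb away) stood at 0.696, 0.307, 1.50 and 1.32 CPM, with a log2 diet change of 1.12 ± 0.56 (SE, adjusted p 0.325 by edgeR) in floxed and 2.09 ± 0.58 (adjusted p 0.0694) in knockout livers. Dbr1 (28.0 kb) and Armc8 (43.6 kb) were read in every group, and Cldn18 (67.1 kb), a claudin known from stomach and lung, had 13 counts over all libraries. All 4 neighbours of Sprr1a within the epidermal gene cluster, Sprr1b, Sprr3, Sprr4 and 2310046K23Rik, 14.4 to 46.6 kb away, had 0 counts in all 12 libraries.

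**Figure D5:**
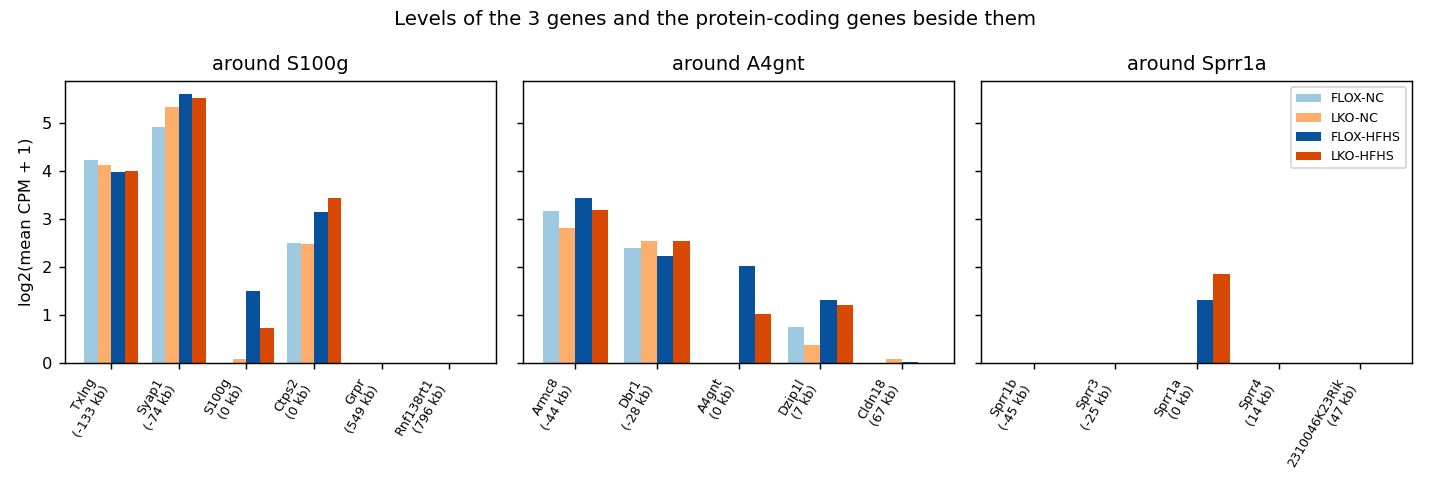
Log2 of mean CPM plus 1 (y axis, from 0) in the 4 groups of 3 libraries for S100g, A4gnt and Sprr1a, their nearest protein-coding genes and Ctps2, which overlaps S100g, with the distance from the member in kb below each name. The neighbours of Sprr1a are empty in every group, while Syap1, Txlng, Armc8 and Dbr1 show bars in all 4.

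The genes whose levels over the 12 libraries were most like each member were found by Pearson's r of log2(CPM + 0.1). All share the step between diets, so r mostly reflects it, and no p is given. For S100g they were Ncapg, a condensin subunit (r = 0.976), A630089N07Rik (0.976), Atp2b2, a plasma membrane calcium pump (0.970), Acnat2, an acyltransferase (0.967), and Sorl1, a sorting receptor (0.964). Atp2b2 stood at mean levels of 0.0714, 0.336, 10.6 and 2.87 CPM in FLOX-NC, LKO-NC, FLOX-HFHS and LKO-HFHS. Each of the genes picked for S100g had its highest mean in FLOX-HFHS, as S100g has, which follows from how they were picked. For A4gnt they were Nipa1, a magnesium transporter (r = 0.975), Extl1, a glycosyltransferase of heparan sulphate (0.972), Tceal8 (0.967), Ncapg (0.966) and Mpeg1, a macrophage perforin (0.966). For Sprr1a they were Rad51b, a DNA repair protein (r = 0.984), Abcb1a, a drug efflux pump (0.982), Slc22a27, an organic anion transporter (0.981), Mmp12, macrophage elastase (0.976), and Vcam1, an adhesion molecule (0.976). Mmp12 stood at 0.0655, 0.132, 4.56 and 8.92 CPM in the same order of groups, and Extl1 at 1.53, 1.25, 12.6 and 5.31 CPM.

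Markers of the tissues known for the 3 genes were partly at 0 and partly read. For the stomach, 6 of 12 markers in the table had 0 counts in all libraries, Muc5ac and both gastrokines Gkn1 and Gkn2 among them. Their summed level was 0.464 to 0.880 CPM in FLOX-NC, 0 to 0.613 in LKO-NC, 0.556 to 0.808 in FLOX-HFHS and 1.14 to 1.73 in LKO-HFHS. In Muc6, Tff1, Tff2, Gkn3, Atp4a and Ctse, the markers with any count, no group had more than 83 counts over its 3 libraries, and the part of such cells in the A4gnt values was not tested. For the intestine, 9 of 14 markers had 0 counts in all libraries, including the defining regulators Cdx1 and Cdx2, and the summed level of 98.6 to 164, 108 to 193, 106 to 178 and 171 to 295 CPM in the same order of groups came mostly from Fabp2 (57.9 to 223 CPM by group mean) and Lgals4 (10.3 to 64.8 CPM). For squamous epithelium, 6 of 12 markers had 0 counts in all libraries, the basal keratins Krt5 and Krt14 among them, and the sums were 2.59 to 4.01, 3.15 to 4.09, 1.95 to 2.52 and 2.21 to 3.10 CPM, of the order of the Sprr1a level itself. Kidney markers summed to at most 0.232 CPM.

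The summed levels of macrophage markers and of cholangiocyte markers were higher in every HFHS library than in every control-diet library. By group mean, Spp1 alone held most of the cholangiocyte sum on the HFHS diet. The 3 genes were chosen for a step between the diets, so sharing it is no result about them. Macrophage markers summed to 78.4 to 136 CPM in FLOX-NC, 77.0 to 122 in LKO-NC, 191 to 369 in FLOX-HFHS and 245 to 311 in LKO-HFHS. Of these markers, 5 of 16 in floxed and 10 of 16 in knockout livers passed edgeR's test as higher on the HFHS diet. The share of all tested genes called higher was 1.6% in floxed and 2.25% in knockout livers. Cholangiocyte markers summed to 37.8 to 56.6, 41.6 to 53.4, 64.9 to 286 and 181 to 244 CPM in the same order, with 1 of 11, Spp1, called in each genotype and holding most of the sum (137 and 184 CPM by mean in FLOX-HFHS and LKO-HFHS). The 11 hepatocyte markers summed to 53094 to 109646, 81445 to 98867, 47863 to 60445 and 48598 to 49291 CPM. Exocrine pancreas markers summed to 9.09 to 34.3, 14.01 to 28.1, 7.91 to 8.87 and 5.45 to 9.56 CPM. The part of these cells in the diet differences of the 3 genes was not tested.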

How the data were processed

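PolyA RNA of mouse liver was sequenced in 12 libraries after library preparation with a stranded kit and a further kit, per the labels' protocols. The tools HISAT2, StringTie, edgeR, cutadapt and FastQC and the build mm10 are listed in the submitters' processing notes, and their versions, roles and strand settings are not given in the sources used here. The deposited estimated counts per gene and per transcript are whole numbers with no normalization, judged from their values, so rounding changed none, and 0 gene counts differ from the sum of their transcripts. The authors' deposited FPKM values per gene were identified from their values too, since count, length and FPKM gave 1 constant per library (largest coefficient of variation 0.0434%). No row lacked a gene name, and 0 columns lacked a sample. The planned test assumed raw counts, and edgeR was used unchanged on these estimates.

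Genes were kept by filterByExpr (15982 of 55401), scaled by TMM and fitted in edgeR 4.0.16 (R 4.3.3) with robust glmQLFit and glmQLFTest, 1 term per group over all 12 libraries, with Benjamini-Hochberg adjustment over all tested genes at 0.05. DESeq2 1.42.0 and limma 3.58.1 on log2(FPKM + 0.1) were alternatives, as were other scalings and filters, a replicate block, the compared libraries alone and leaving out each library. Gene positions came from the deposited tables, and 54815 of 55401 gene bounds equal those of GENCODE vM21. Neighbours, exons and transcript words came from GENCODE vM21 and promoters from RefSeq (GRCm38.p6), in which all 3 members were matched by symbol.

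The members, gene lists, tests and rule for named genes were chosen with earlier results of these data known. Named genes were the 3 members, up to 4 genes of smallest p per list and diet comparison (2 between genotypes), the 5 genes most alike to each member, the 2 nearest protein-coding genes on each side and the genes of the count pattern. List genes not printed by name are in the counts. Aqp7, Timp1, Muc6 and the markers were named outside that rule, after their values were seen. So were Pparg, Cidea, Mogat1, Fabp4, Steap4 and Myc, whose calls changed with the setting or the replicate block. Lists were described by counts and medians, and no set test was made. No pair of libraries was a duplicate. Correlations of deviations from the group means between same-numbered libraries were 0.337, 0.146 and 0.115 for the diet comparison in knockout livers. Each is over 0.1, the rule used for a pair. However, LKO-HFHS replicate 2 and LKO-NC replicate 3, of unlike number, reached 0.135, and the labels name no pairs. The rule thus cannot show that same-numbered libraries are pairs, and blocked results in either genotype are an alternative setting only. The values printed come from the planned unblocked fit, and the blocked result stands beside them where a call or count changed. The same-number correlations were 0.306, -0.036 and 0.086 for the diet in floxed livers and 0.281, 0.228 and 0.093 between genotypes on the HFHS diet. There the numbers were not taken as pairs by the rule. The labels name no batch. The 95% intervals include the spread between libraries, and limits for counts of 0 (3 counts) cover counting error only.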

Additional observations from a re-analysis of the deposited data

How the results depend on the processing

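The genotype difference on the HFHS diet kept its direction and stayed short of an adjusted p of 0.05 for all 3 genes under every setting run. Leaving out 1 library gave -1.69 to -1.14 for S100g, -1.87 to -1.24 for A4gnt and 0.39 to 0.99 for Sprr1a (log2), the lowest Sprr1a value being without LKO-HFHS replicate 3. Without a scaling factor the values were -0.93, -1.10 and 1.27, where the median of all genes moved from 0.01 to 0.45, and the mean S100g level in LKO-HFHS became 0.805 CPM. On log2(FPKM + 1) they were -0.61, -0.41 and 0.79, and with the replicate block -1.45, -1.69 and 0.72. A setting added after seeing the data, without the 4 libraries numbered 1, gave -1.13, -1.33 and 0.88. The log2 difference of the S100g to A4gnt ratio ran from -0.17 without LKO-HFHS replicate 1 to 0.71 without FLOX-HFHS replicate 1, so its direction rests on the library left out.

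The count of pathway genes called in floxed livers was 8 in the 6 floxed libraries alone, 8 to 13 with 1 library left out, 18 with DESeq2 and 18 with the replicate block. In knockout livers it was 19 with DESeq2, 19 with the replicate block and 8 to 12 with 1 library left out. DESeq2 and the block also called more of all tested genes than the main fit, 8.10% and 7.87% in floxed livers and 9.81% and 6.995% in knockout livers respectively. For fits with 1 library left out or with the compared libraries alone, the share of all tested genes is not given here. Between genotypes on the HFHS diet it was 1 with DESeq2. The split of all called genes moved from 255 higher and 209 lower to 136 and 163 without a scaling factor in floxed livers, and from 359 and 240 to 410 and 99 in knockout livers. The replicate block gave 574 higher and 683 lower in floxed livers and 615 and 503 in knockout livers. The cause was not tested. Counts of 20 to 272 per library and 3 libraries a group limit the precision for all 3 genes.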
